A study of Schmidtea mediterranea with 4 samples.

Results

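*nrps* (gut) is a paralog of *nrps* that is expressed in the intestine of the planarian *Schmidtea mediterranea*. It is 1 of 22192 genes in the deposited gene list, SMESG000014974.1, and its row was read in 4 single-cell RNA sequencing (scRNA-seq) libraries. Posterior libraries 1 and 2 and anterior libraries 1 and 2 all came from mature worms of the sexual strain that were starved for 1 week and received no treatment. Each dissociation used tissue of 15 to 20 planarians, pooled, from regions that hold reproductive organs, and live cells were sorted. Nothing states that libraries of a region came from separate worms beyond their being separate samples, so *P* values measure the spread between these libraries, which may be technical.

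Nonribosomal peptide synthetases (NRPSs) are enzymes that join amino acids or amines without a ribosome. In *Drosophila*, the NRPS Ebony couples β-alanine to monoamines such as dopamine and histamine, and in the flatworm *Schistosoma mansoni* a related enzyme couples β-alanine to tryptamine. Planarian *nrps* (SMESG000023215.1) is a marker of somatic gonadal and support cells, and the gut paralog served the study as a specificity control in RNA interference. The planarian intestine is a branched organ whose lining holds absorptive phagocytes and secretory goblet cells, and it fills much of the body between the reproductive organs.

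The 4 libraries held 48216 cells and 158299582 unique molecular identifiers (UMIs), each of which stands for 1 captured transcript. Posterior cells were deeper, with medians of 3297.5 and 2394.5 UMIs per cell in posterior libraries, against 1208 and 1218 in anterior libraries. Cells were grouped into 50 numbered clusters without the named genes taking part. No intestinal marker was available by gene number, so the label of the gene could not be checked against gut markers, and no cluster is given a cell type name.

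*nrps* (gut) was detected in every library at a low average level and in few copies per cell. It held 5001 UMIs in 3646 cells (7.56% of all cells), or 31.6 CPM (its UMIs relative to all UMIs of the cells, as a count per standard total), and ranked 6235 by total UMIs among 21937 detected genes. Posterior library 1 held 1599 UMIs in 1205 of 12026 cells, and posterior library 2 held 2456 UMIs in 1659 of 19080 cells. Anterior library 1 held 324 UMIs in 254 of 6721 cells, and anterior library 2 held 622 UMIs in 528 of 10389 cells. The counts thus followed the depth of the libraries, which held between 11513838 and 72094246 UMIs.

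Most positive cells held a minimal count. A single UMI was found in 2940 positive cells (80.6%), 2 UMIs in 437 cells, 3 UMIs in 124, 4 UMIs in 61, between 5 and 9 UMIs in 72, and 10 or more in 12. UMIs per positive cell averaged 1.33 and 1.48 in posterior libraries, against 1.28 and 1.18 in anterior libraries. The highest count in a cell was 12 and 14 in posterior libraries, against 10 and 6 in anterior libraries. Positive cells were deep cells, with a median of 5078 UMIs against 1811.5 UMIs in negative cells.

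The counts were not spread evenly over cells of like depth. If every cell of a library carried the paralog at the same CPM, Poisson counting would leave 2.16 cells with at least 5 UMIs, and 84 were observed. For at least 3 UMIs the expected number was 57.7 cells and the observed number was 269. The excess was present in every library: for at least 3 UMIs, 75 and 166 cells were observed in posterior libraries (20.4 and 34.4 expected), and 12 and 16 in anterior libraries (1.05 and 1.83 expected).

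**Figure D1:**
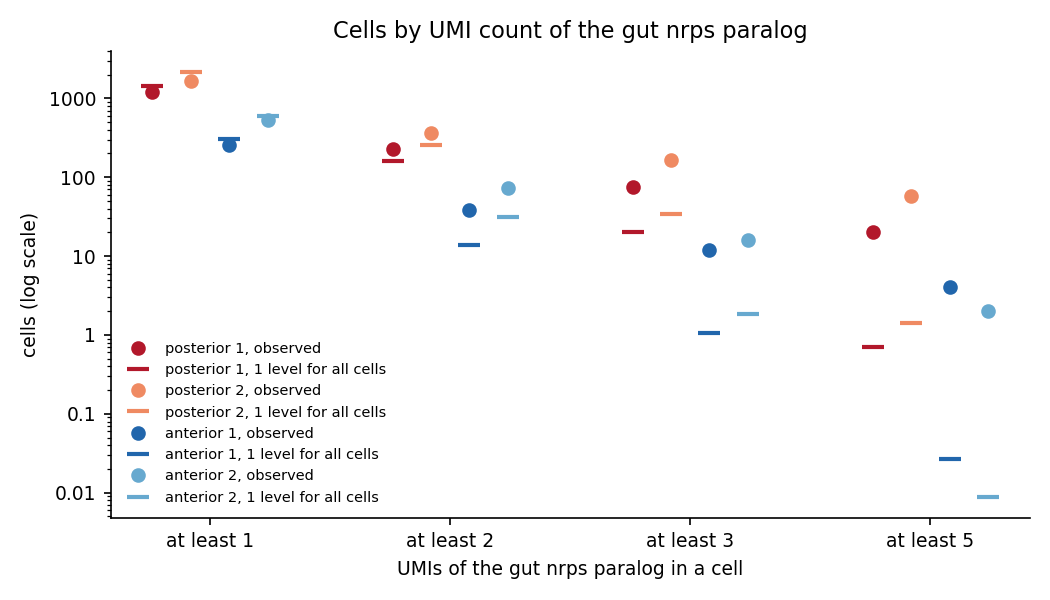
Number of cells (log scale) with at least 1, 2, 3 or 5 UMIs of *nrps* (gut) in each library. Points are observed numbers and short bars are the Poisson numbers for a level shared by all cells of the library; points lie below the bars at 1 UMI and above them from 2 UMIs upward, with 20 and 58 cells of at least 5 UMIs in posterior libraries and 4 and 2 in anterior libraries.

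Cells with at least 5 UMIs, called high cells here, carried a small share of the transcripts. The 84 high cells held 571 UMIs, or 11.4% of all *nrps* (gut) UMIs (exact binomial 95% interval 10.5 to 12.3, counting error only). Posterior libraries held 20 and 58 of them, with 8.0% and 16.4% of the paralog UMIs of those libraries. Anterior libraries held 4 and 2, with 8.95% and 1.77%. Posterior library 2 gave most of the high cells, and without it their share was 6.6%. The median high cell reached 1141 CPM, within a range of 373 to 4488 CPM. High cells were also deep, with a median of 6468.5 UMIs. After each cell was thinned to 1000 UMIs, cells of at least 5 UMIs held 0.460% of the paralog UMIs.

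The highest levels lay in a pair of cell groups. Cluster 30 stood first and cluster 15 second, and together they held 1729 UMIs, or 34.6% of the paralog, in 1891 cells (3.92% of cells). The other 48 clusters held the remaining 3272 UMIs, and each had at least 1. Their pooled levels ran between 2.40 and 59.4 CPM with a median of 18.5 CPM.

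Cluster 30 held 532 cells, of which 381 (71.6%) were positive. Its level was 574 and 648 CPM in posterior libraries, with 88 and 257 cells and 245 and 715 UMIs. It was 579 and 517 CPM in anterior libraries, with 60 and 127 cells and 88 and 131 UMIs. The regions overlapped, and posterior library 2 was the highest. Of the 84 high cells, 81 belonged to cluster 30, 2 to cluster 15 and 1 to another cluster. With each cell thinned to 1000 UMIs, 42.9% and 45.4% of cluster 30 cells remained positive in posterior libraries, against 47.1% and 47.7% in anterior libraries.

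Cluster 15 was larger and lower. Of its 1359 cells, 381 (28.0%) were positive, with 550 UMIs. Its level was 121 and 169 CPM in posterior libraries, against 130 and 158 CPM in anterior libraries. Pooled over libraries, cluster 30 stood 4.21-fold above cluster 15. After thinning, 11.2% and 12.7% of cluster 15 cells were positive in posterior libraries, against 9.26% and 13.8% in anterior libraries.

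Because a cluster picked by the level of a gene will be high in that gene, the cluster was picked in 3 libraries and measured in the library left out. Cluster 30 was picked all 4 times. In the library left out it reached 574 CPM against 24.6 CPM in the other cells of posterior library 1, and 648 against 24.5 CPM in posterior library 2. It reached 579 against 20.8 CPM in anterior library 1, and 517 against 25.9 CPM in anterior library 2. The mean log2 ratio was 4.60 ± 0.21 (SD, n = 4 libraries), between 20.0-fold and 27.9-fold, and higher in the cluster in 4 of 4 libraries (exact sign-flip permutation test, two-sided *P* = 0.125, the smallest that 4 libraries allow).

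*nrps* (gut) differed among the 50 clusters in edgeR's quasi-likelihood F-test on 194 sums per cluster and library, with the library as a block (adjusted *P* = 7.6e-113 after Benjamini-Hochberg adjustment over 15843 genes). That call was common: 99.1% of the genes tested passed the same test, and the F of the paralog ranked 1995 among them. In that fit, cluster 30 stood 5.44 above the mean of the other clusters on the log2 scale, which is given as a description because the paralog chose the cluster.

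Clusters were ordered by the mean over libraries of log2(CPM + 5), using libraries with at least 10 cells of the cluster. Cluster 30 had a mean of 9.19 ± 0.13 and cluster 15 a mean of 7.21 ± 0.22 (SD, n = 4 libraries each). They differed by 1.98 ± 0.23, in the same direction in 4 of 4 libraries. Of 49 neighboring pairs in the order, this was the only pair that every library ordered alike with a difference beyond its SD. Cluster 49 followed at 6.0 ± 1.51 (2 libraries), cluster 48 at 5.84 ± 1.02 (4 libraries) and cluster 46 at 5.19 ± 0.61 (3 libraries).

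These 3 clusters were small and rested on few UMIs. Cluster 49 held 4 paralog UMIs in 55 cells, which gives 51.7 CPM with an exact Poisson 95% interval of 14.1 to 132. Cluster 48 held 14 UMIs in 80 cells (59.4 CPM, 32.5 to 99.7), and cluster 46 held 20 UMIs in 120 cells (29.9 CPM, 18.3 to 46.2). Cluster 48 also carried transcripts of cluster 30. For 20 genes that were abundant in cluster 30 and rarest outside it, cluster 48 reached 11202.5 CPM in sum, against 93592.5 CPM in cluster 30, and their part in the paralog level of cluster 48 was not tested.

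**Figure D2:**
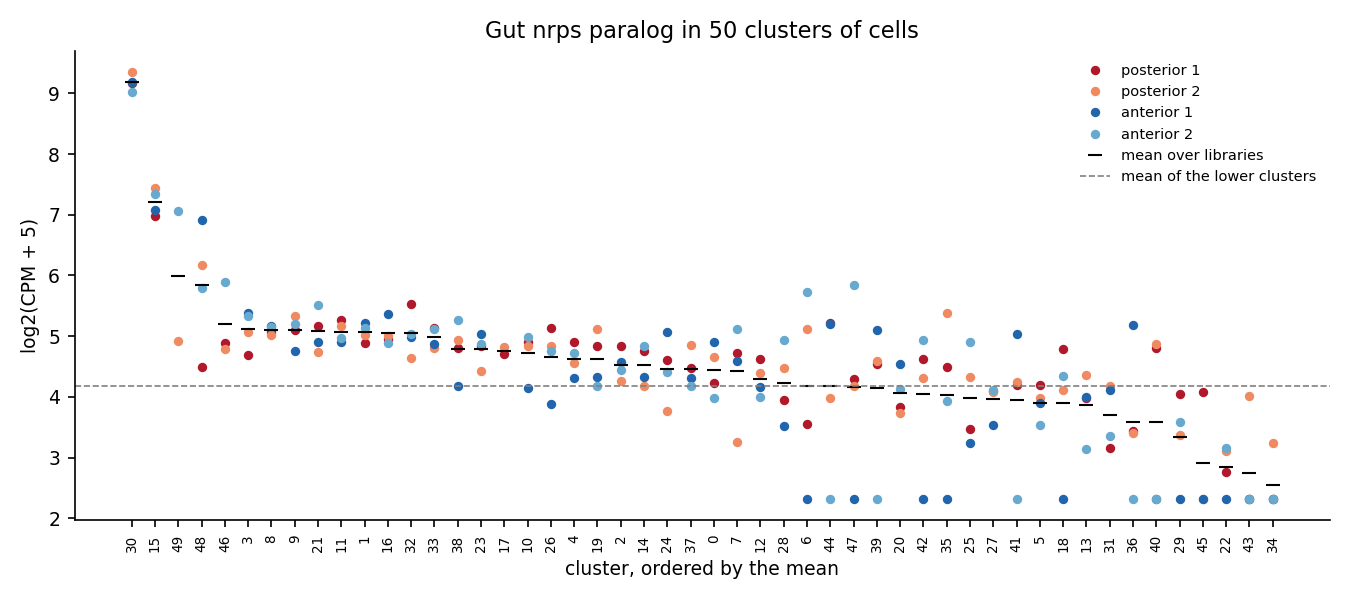
Level of *nrps* (gut) in 50 clusters, as log2(CPM + 5), ordered by the mean over libraries (black dashes). Points are libraries with at least 10 cells of the cluster and the broken line is the mean of the lower-ranked clusters, 13.2 CPM. Cluster 30 stands apart with all 4 libraries close together. Cluster 15 is next, but cluster 49 in anterior library 2 (129 CPM) lies above cluster 15 in posterior library 1 (121 CPM). Points of the other clusters overlap from neighbor to neighbor.

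At the other end, cluster 34 ranked last with 2 UMIs in 345 cells, both in posterior library 2. It held 0 UMIs in 39 cells of posterior library 1 and in 55 and 72 cells of the anterior libraries, where counting error alone allows up to 29.7, 57.4 and 44.6 CPM. Cluster 22, which was singled out after its values were seen, had the lowest pooled level at 2.40 CPM (1.43 to 3.8), from 18 UMIs in 811 cells with a median depth of 4803 UMIs. Other deep clusters did not share this low level. Cluster 8 had a median depth of 6791 UMIs and 28.2 CPM, cluster 10 had 6423.5 UMIs and 24.1 CPM, and cluster 26 had 8643.5 UMIs and 24.9 CPM.

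To set a background, clusters were ranked by the 3 other libraries and the level in each library was taken over the lower-ranked 24 or 25 clusters. It was 12.4 and 14.2 CPM in posterior libraries, against 13.1 and 13.2 CPM in anterior libraries (mean 13.2 ± 0.738, SD, n = 4). After thinning to 1000 UMIs, 0.939% and 1.46% of these cells were positive in posterior libraries, against 0.973% and 1.08% in anterior libraries. Cluster 30 stood 43.8 ± 3.13-fold above this background and cluster 15 stood 10.9 ± 1.21-fold above it (SD, n = 4 libraries each). No cell of the background held more than 4 UMIs.

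Cells outside clusters 30 and 15 carried the paralog at 21.4 CPM, with 2884 of 46325 cells positive (6.23%). Of these positive cells, 88.8% held 1 UMI and the highest count was 6. This level was 3.52% of the level in cluster 30. The 20 cluster 30 genes described above stood outside both clusters at 0.350% of their summed level in cluster 30, which is low because they were chosen for low values elsewhere, so nothing is read from the difference between the paralog and these genes. By library, the paralog reached 3.79% and 3.31% in posterior libraries, against 3.20% and 4.31% in anterior libraries. The part of free RNA in the counts outside these clusters was not tested.

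Taken over all depths, most counts within cluster 30 were close to what a level shared by its cells would give. The level itself differed with depth, as given below. There were 151 cells without a UMI where Poisson counting at the level of each library gives 136, 113 cells with 1 UMI (122 expected), 89 with 2 (87.4 expected), 58 with 3 (62.0 expected) and 69 with 5 to 9 (75.1 expected). The upper tail was longer, with 12 cells of at least 10 UMIs against 5.25 expected. Outside clusters 30 and 15, 43 cells held 3 UMIs (18.4 expected) and 9 held 4 UMIs (2.25 expected), so those cells were less uniform than a shared level gives.

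**Figure D3:**
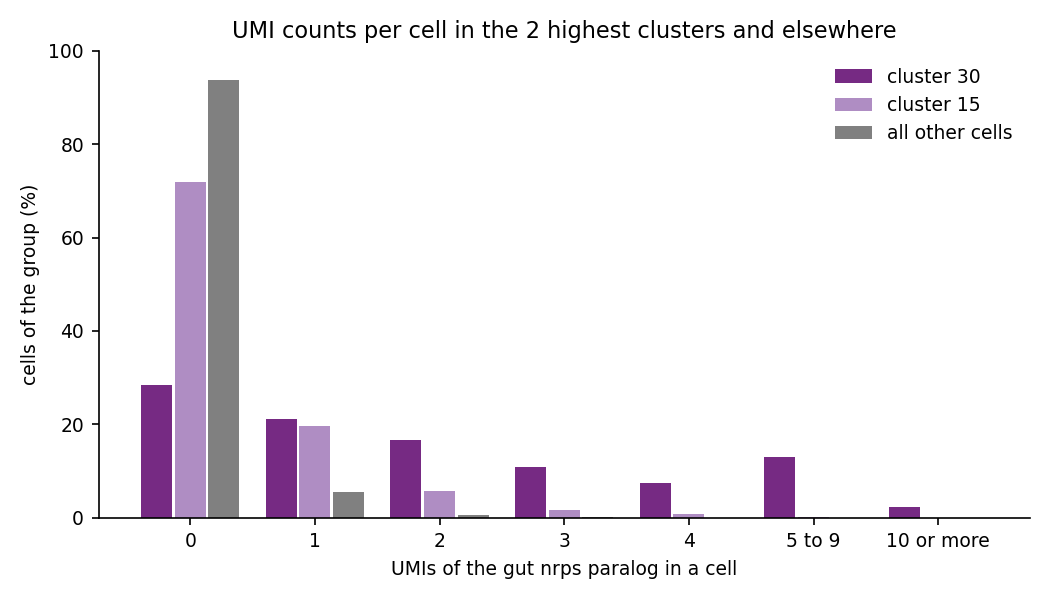
Share of cells (%) by number of *nrps* (gut) UMIs in cluster 30, cluster 15 and all other cells, libraries pooled. Cells without a UMI make up 28.4% of cluster 30, 72.0% of cluster 15 and 93.8% of all other cells, and counts of 5 to 9 make up 13.0% of cluster 30, against 0.147% of cluster 15.

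Within cluster 30, shallow cells had the higher relative level. Ordered by depth into 4 groups of 133 cells, they reached 835, 710, 650 and 532 CPM, shallowest to deepest, with exact Poisson intervals of 678 to 1017 at the shallow end and 488 to 579 at the deep end. The share of positive cells ran the other way, at 44.4%, 69.9%, 79.7% and 92.5%. In cluster 15, the shallowest 340 cells reached 380 CPM (309 to 462), and the 3 deeper groups reached 127, 123 and 129 CPM. Cells of 1098 UMIs or fewer thus carried 100 of the 550 UMIs of cluster 15.

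The regions were compared to ask whether the paralog is as abundant in posterior as in anterior cells. The level over all cells was 28.8 and 34.1 CPM in posterior libraries, against 28.1 and 32.4 CPM in anterior libraries. The ranges overlapped, and the means were 31.4 ± 3.71 and 30.3 ± 2.99 CPM (SD, n = 2 each). In edgeR's quasi-likelihood test on UMIs summed per library, the log2 fold change, posterior over anterior, was 0.09 (standard error 0.21, 95% interval -0.42 to 0.59, adjusted *P* = 1.00). Of 18716 genes tested, 31 (0.166%) passed at an adjusted *P* of 0.05, with 8 higher (0.0427%) and 23 lower (0.123%) in posterior libraries. None of the fixed genes was among them: *nrps* had a log2 fold change of -0.99 (standard error 0.53), *LamA* (SMESG000056013.1), an extracellular matrix component of somatic gonadal cells, -0.57 (0.33), and *klf4l* (SMESG000031008.1), a marker of germline stem cells and yolk progenitors, -0.46 (0.39), with edgeR adjusted *P* of 0.72, 0.79 and 0.99.

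The share of positive cells was compared with all UMIs and at a common depth. Thinning to 1000 or 2000 UMIs also left out shallower cells, so how far depth alone set the difference was not tested. With all UMIs, 10.0% and 8.69% of posterior cells were positive, against 3.78% and 5.08% of anterior cells, and the regions did not overlap. The difference of means was 4.93 percentage points (exact permutation test, two-sided *P* = 0.333, the smallest that 2 against 2 libraries allow). After thinning to 1000 UMIs, which left out 1614 and 4147 posterior and 2577 and 4088 anterior cells, 2.46% and 2.85% were positive in posterior libraries, against 2.24% and 2.95% in anterior libraries. The difference was then 0.0543 percentage points, 2.65 ± 0.274% against 2.60 ± 0.50% (SD, n = 2 each, exact permutation *P* = 1). Thinning to 500 UMIs left out no cell and gave 1.46% and 1.67% in posterior libraries, against 1.19% and 1.43% in anterior libraries. The regions did not overlap there (difference 0.255 points, exact permutation *P* = 0.333). Thinning to 2000 UMIs left out 3630 and 8392 posterior and 5115 and 7481 anterior cells. It turned the direction, at -0.914 points, again without overlap. Shares were then 4.84% and 5.58% in posterior libraries, against 5.60% and 6.64% in anterior libraries. At both depths the nearest libraries of the regions almost met, at 1.46% and 1.43% and at 5.58% and 5.60%. Their exact binomial intervals overlapped, so neither separation is read as a difference.

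**Figure D4:**
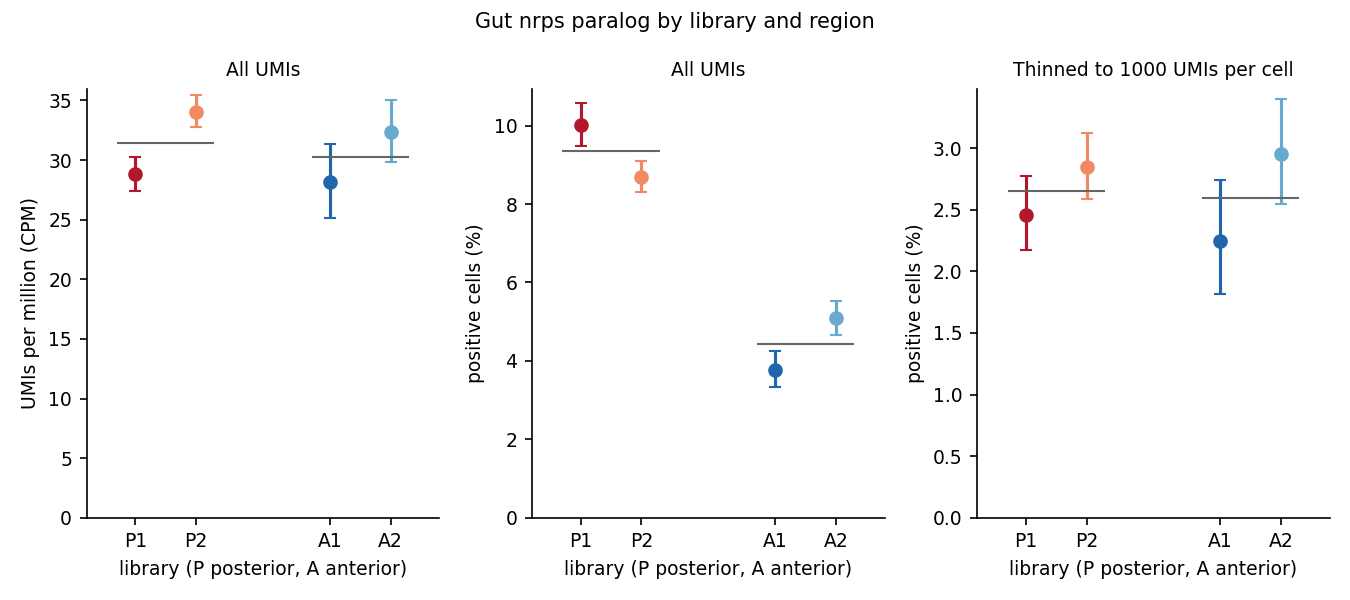
*nrps* (gut) by library, posterior left of anterior: CPM over all cells, share of positive cells with all UMIs, and share after thinning to 1000 UMIs per cell. Points are libraries with exact 95% intervals of counting error and gray lines are region means; the regions separate only in the middle panel, at 10.0% and 8.69% against 3.78% and 5.08%.

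The regions overlapped in the level within cluster 30 with all UMIs and in the size of the cluster. In cluster 30 the paralog averaged 611 ± 52.5 CPM in posterior and 548 ± 43.3 CPM in anterior libraries (SD, n = 2 each, exact permutation *P* = 0.667). In edgeR's test within the cluster, the log2 fold change was 0.22 (standard error 0.18, 95% interval -0.18 to 0.62, adjusted *P* = 1.00), where 5 of 5223 genes (0.0957%) passed. With each cell thinned to 1000 UMIs, the level in cluster 30 was 688 and 683 CPM in posterior libraries, from 77 and 227 cells, against 627 and 670 CPM in anterior libraries, from 51 and 88 cells. The regions then did not overlap, with the higher level in posterior libraries, while the share of positive cells given above was lower there, also without overlap. Both orders come from a single random draw of UMIs per cell. These thinned values rest on 53 and 155 paralog UMIs in posterior libraries, against 32 and 59 in anterior libraries, and the exact binomial intervals of the shares overlapped between all 4 libraries (31.6 to 54.6% and 38.8 to 52.1% in posterior libraries, against 32.9 to 61.5% and 37.0 to 58.6% in anterior libraries). The fold change in cluster 30 and that in all other cells differed by 0.35 (standard error 0.29, edgeR adjusted *P* = 1). Cluster 30 took 0.732% and 1.35% of cells in posterior libraries, against 0.893% and 1.22% in anterior libraries. Cluster 15 took 3.14% and 2.62%, against 2.07% and 3.30%.

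Cells were next compared by whether they held *nrps*. *nrps* held 279 UMIs in 162 cells, and 13 of those cells (8.02%, exact binomial interval 4.34 to 13.3) also held the paralog, against 3633 of 48054 *nrps*-negative cells (7.56%). Posterior libraries had 8 of 41 and 4 of 68 *nrps*-positive cells with the paralog, and anterior libraries had 1 of 21 and 0 of 32. After thinning to 1000 UMIs, 1 of 61 *nrps*-positive cells was positive (1.64%, 0.0415 to 8.80), against 959 of 35729 *nrps*-negative cells (2.68%, 2.52 to 2.86). Over libraries the difference was -0.70 ± 3.98 percentage points (SD, n = 4, higher in *nrps*-positive cells in 1 of 4 libraries, exact sign-flip permutation *P* = 0.875, adjusted over 3 genes 0.875). At this number of *nrps*-positive cells, a difference of a few points was not detectable, and reads of one gene counted for the other cannot be seen in these counts. Without thinning, 1 of 36 cells with at least 2 *nrps* UMIs held the paralog (2.78%, 0.0703 to 14.5), against the 7.56% of *nrps*-negative cells. These were 0 of 4 and 1 of 18 cells in posterior libraries, and 0 of 2 and 0 of 12 in anterior libraries. Over libraries the difference was -5.50 points (exact sign-flip permutation *P* = 0.125, the smallest that 4 libraries allow). Exact binomial intervals of these shares reached up to 60.2% and 27.3% in posterior libraries, and 84.2% and 26.5% in anterior libraries. With so few cells a count of 0 can arise at the share of *nrps*-negative cells too, so nothing is read from this difference. In the thinned comparison, leaving out anterior library 2 or posterior library 2 turned the direction, at 0.0466 and 0.0103 points.

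**Figure D5:**
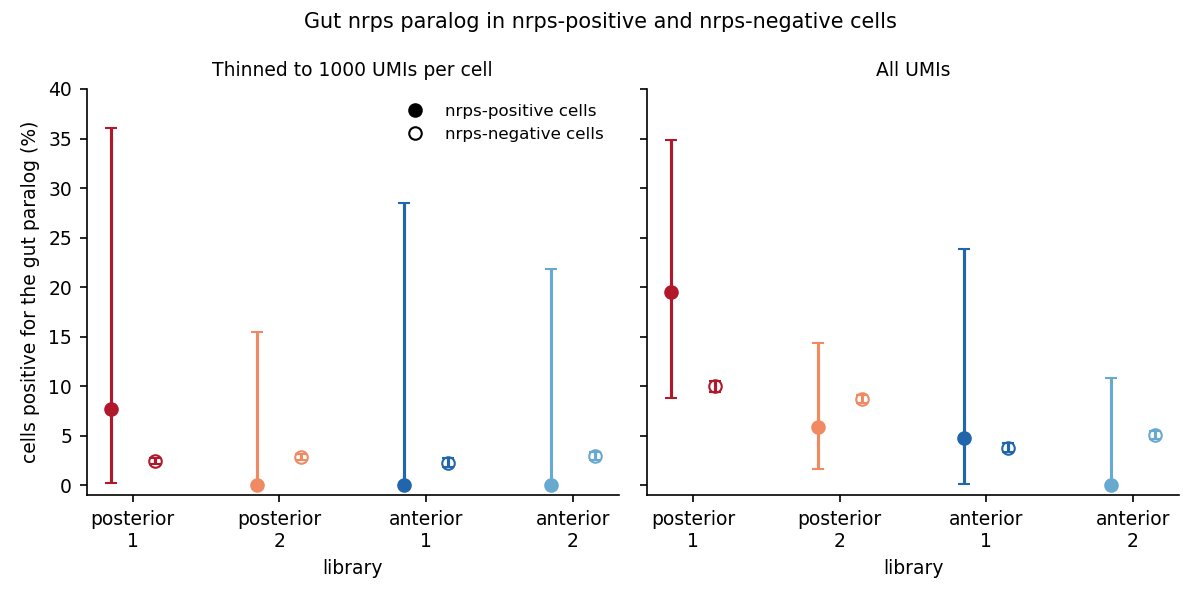
Share of cells (%) positive for *nrps* (gut) among *nrps*-positive cells (filled) and *nrps*-negative cells (open) in each library, after thinning to 1000 UMIs per cell and with all UMIs. Bars are exact binomial 95% intervals; after thinning, 1 of 13 *nrps*-positive cells in posterior library 1 and 0 of 22, 11 and 15 in the other libraries held the paralog.

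The double-positive cells did not form a group. They lay in 12 clusters, and 10 of the 13 held 1 UMI of both genes. Their median depth was 6540 UMIs, against 2240.5 UMIs for all *nrps*-positive cells. The highest count in them was 2 for the paralog and 2 for *nrps*. One lay in cluster 30, at 6563 UMIs with 2 paralog UMIs and 1 *nrps* UMI, and 1 lay in cluster 49, at 985 UMIs with 1 paralog UMI and 2 *nrps* UMIs. *LamA* was found in 3 of them.

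Cluster 49, which had the largest share of *nrps*-positive cells, was the third in the order of paralog levels. It held 36 *nrps* UMIs and 233 *LamA* UMIs beside its 4 paralog UMIs. Those came from 4 cells, 1 and 1 in posterior libraries and 0 and 2 in anterior libraries. Other clusters with *nrps* stood at high and low ranks in the paralog. Clusters 19 and 5, chosen after their values were seen, held 99 and 26 *nrps* UMIs in 18 and 22 cells. Their paralog levels were 23.8 and 11.5 CPM, at ranks 21 and 40 in the order. Clusters 3 and 8, chosen in the same way, held 6 and 9 *nrps* UMIs in 4 and 8 cells. Their paralog levels were 26.5 and 28.2 CPM, at ranks 6 and 7. Cluster 30 held 1 *nrps* UMI, 6 *LamA* UMIs and 1 *klf4l* UMI beside 1179 paralog UMIs. Cluster 15 held 1, 14 and 2. In the fit over clusters, *nrps* in cluster 30 stood 0.03 above the mean of the other clusters on the log2 scale. That value rests on 1 *nrps* UMI, and the mean takes in clusters without any *nrps* UMI. Nothing is therefore read from it about the level of *nrps* in cluster 30. None of the 84 high cells held *nrps*, where a limit of 3 counts gives 3.57%. Since 162 of 48216 cells held *nrps* at all, that number of high cells is too small for a comparison.

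*LamA* and *klf4l* gave no clearer relation to the paralog. After thinning, 13 of 578 *LamA*-positive cells (2.25%) held the paralog, a difference over libraries of -0.62 ± 1.29 points (SD, n = 4, exact sign-flip *P* = 0.5, adjusted 0.75). For *klf4l*, 2 of 106 positive cells (1.89%) held it, a difference of -1.25 ± 1.35 points (SD, n = 4, exact sign-flip *P* = 0.25, adjusted 0.75). With all UMIs the same shares were 12.1% for *LamA*-positive and 11.2% for *klf4l*-positive cells, which had median depths of 3525 and 4765.5 UMIs. Cells negative for these genes had 7.40% and 7.54%, at median depths of 1907 and 1934 UMIs. The direction was thus the reverse of the thinned one. Differences over libraries were 3.01 and 2.34 points, each higher in 3 of 4 libraries (exact sign-flip *P* = 0.25 and 0.5, adjusted 0.75 each). Depth thus moved with the unthinned values.

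Across 48 clusters of at least 100 cells, 2 genes followed the paralog most closely among 13818 genes with at least 500 UMIs. The correlation of log2(CPM + 5) over clusters was 0.89 for SMESG000066583.1 and 0.87 for SMESG000014979.1, against a median of 0.0074 over all genes, and 3 genes exceeded 0.8. The points share libraries and cell depth, so these values are descriptions. The files do not pair the identifiers with names. SMESG000066583.1 held 410 CPM in cluster 30, 264 CPM in cluster 15 and 36.9 CPM in all other cells. SMESG000014979.1 held 562, 93.7 and 23.6 CPM. The correlations of *nrps*, *LamA* and *klf4l* with the paralog were -0.09, -0.10 and 0.08. The minimum of 100 cells left out cluster 49, where *nrps*-positive cells were most frequent, and *nrps*, with 279 UMIs, was under the minimum of 500 UMIs for ranked genes, so its value says little of the relation between both genes. By rank correlation both genes stood lower, at 0.70 each and at ranks 106 and 126.

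The 2 genes differed in how their levels in cluster 30 fell by library. SMESG000014979.1 reached 616 and 568 CPM in cluster 30 of the posterior libraries, against 447 and 513 CPM in the anterior libraries. SMESG000066583.1 reached 375 and 442 CPM, against 401 and 332 CPM. Both genes were higher in cluster 30 than in cluster 15 in 4 of 4 libraries.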

How the data were processed

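The values are the raw UMI counts that the authors deposited, one matrix of genes by cells per library, made with Cell Ranger 5.0.0 (10x Genomics 3′ kit, version 3.1) by alignment to the sexual *S. mediterranea* genome. The study's later aggregation to a common depth is not in these values. No sequence, genome position or gene name was used here. SMESG000014974.1 follows from the transcript number that the study gives for *nrps* (gut), as the study pairs both numbers for *nrps*.

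All 48216 barcodes entered, each with at least 500 UMIs, and a cell was positive from 1 UMI. Thinning drew UMIs of each cell at random, a single time for each depth. Counts per cell were scaled to 10000 and log-transformed. Clustering left out the named genes and used 3000 variable genes (unit variance, values held at or below 10), 50 principal components, 20 neighbors and Leiden at resolution 1 (scanpy 1.11.5, leidenalg 0.10.2, Python 3.11.15). Scrublet's own threshold marked 0 and 200 cells in posterior libraries and 0 and 0 in anterior libraries, too few to count as detection. No doublets were therefore removed, and 455 cells carried a barcode that was also found in another library. Tests across genes ran on library sums in edgeR 4.0.16 (R 4.3.3), using quasi-likelihood fits, TMM factors, filterByExpr and Benjamini-Hochberg adjustment at 0.05. DESeq2 1.42.0 was an alternative. For sums per cluster, the dispersion came from the quasi-likelihood fit itself. Other tests were exact permutations over libraries. Shares have exact binomial and CPM values exact Poisson 95% intervals, which cover counting error only. The absence of *nrps* among the 84 high cells is given with a limit of 3 counts. The functions for edgeR and for the correlations were tested on simulated data.

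Named genes were those that the study gives by an SMESG or SMEST number and the 2 genes most like the paralog. Named clusters were the 5 highest in the paralog, the cluster where *nrps*-positive cells were most frequent and the lowest cluster, and others are named as chosen after their values were seen or as deep clusters for contrast. The gene, the lists and the tests were chosen with earlier results of these data known.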

Additional observations from a re-analysis of the deposited data

How the results depend on the processing

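The level of the picked cluster in the left-out library kept its direction under all 13 alternatives. Mean log2 ratios lay between 3.74 (resolution 0.5) and 4.73, and between 4.53 and 4.69 with each library left out of the mean. Under each other clustering the cluster was picked anew, and its overlap in cells with cluster 30 was not measured. The F-test over clusters kept its call under all 10 alternatives (other resolutions, scaling within libraries, library sizes alone, no library block, no filter, each library left out), with log2 differences between 4.44 and 5.51. The region difference in level stayed short of the threshold under all 11 alternatives with a test, and all 12 alternatives gave values between -0.00028 and 0.22 on the log2 scale. Its direction reversed without anterior library 1, at -0.00028, and the range with each library left out was -0.00028 to 0.22. With the replicate block (the number of the library) the log2 fold change was 0.0922 (edgeR adjusted *P* = 0.94) and 84 genes were called over all genes, against 31 without it. Libraries with the same number correlated at 0.16 in their deviations, which with 2 pairs does not show that the numbers pair the samples. The region difference in share of positive cells reversed to -0.914 points at 2000 UMIs, and ran between -0.300 and 0.408 points with each library left out. The share of paralog UMIs in high cells moved to 23.7% at a minimum of 3 UMIs, 2.72% at 10 UMIs and 0.460% after thinning, as the rule for high cells itself implies, and ran between 6.6% and 13.0% with each library left out. The difference between *nrps*-positive and *nrps*-negative cells reversed to 0.647 points without thinning. It was -5.50 points for the 36 cells of at least 2 *nrps* UMIs, also without thinning, which are too few to read a direction from. With thinning, it ran between -2.69 and 0.0466 points with each library left out. The correlations of SMESG000066583.1 and SMESG000014979.1 moved to 0.705 and 0.701 by Spearman and to 0.722 and 0.678 in anterior libraries. Cells with shared barcodes were removed as an alternative chosen after seeing the data, and no call or direction changed. Where no cause is named, the cause was not tested. With 2 libraries a region, exact tests could not pass 0.05.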

Other observations

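The identifier SMESG000014979.1, one of the 2 genes most like the paralog over clusters, stands at row 17970 of the gene list, directly before the paralog at row 17971. No genome was used, so nothing is said of where either gene lies. In cluster 30, with each cell thinned to 1000 UMIs, SMESG000014979.1 was found in 95 of 202 paralog-positive cells (47.0%) and in 93 of 241 paralog-negative cells (38.6%). The shares were 60.6% against 45.5% and 44.7% against 37.1% in posterior libraries, and 41.7% against 33.3% and 45.2% against 39.1% in anterior libraries, so the paralog-positive cells had the higher share in 4 of 4 libraries. SMESG000066583.1 was found in 28.2% of paralog-positive and 31.1% of paralog-negative cells of the cluster. Neither difference was tested, and reads that fit both of 2 adjacent or similar genes cannot be seen in these counts.

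Of 138 genes with at least 1000 CPM in cluster 30, the 20 rarest elsewhere also appeared in other clusters, of which 4 are named after their values were seen. They reached 8405 CPM in cluster 15 beside 145 CPM of the paralog, 2075 CPM in cluster 6 beside 29.4 CPM, 2058 CPM in cluster 34 beside 2.79 CPM, and 1833 CPM in cluster 35 beside 23.7 CPM.

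Among the 13818 genes used for the correlations, 380 (2.75%) had their highest pooled level in cluster 30, and 87 of these were second highest in cluster 15, as the paralog was among clusters of at least 100 cells.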
